A study of Mus musculus with 6 samples.

Results

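Oxidative phosphorylation is carried out by the proteins of 5 complexes of the inner mitochondrial membrane, and the nuclear genes that encode their subunits were described here complex by complex. RNA was sequenced from long-term haematopoietic stem cells, or LT-HSCs, with and without forced expression of IMP1, an RNA-binding protein that is the product of Igf2bp1. The members were all genes of the count table whose mouse symbol begins with Ndufa, Ndufb, Ndufc, Ndufs or Ndufv (without the assembly factors Ndufaf), Uqcr, Cox4i, Cox5, Cox6, Cox7, Cox8 or Atp5, together with Sdha, Sdhb, Sdhc, Sdhd, Cyc1 and Cycs. The rule found 88 of the 21761 genes in the table. By textbook assignment, 36 belong to complex I, 4 to complex II, 9 to complex III, 19 to complex IV and 17 to complex V. Cycs, the electron carrier between complexes III and IV, was kept apart. Of the others, Ndufa4l2 is a relative of a subunit gene, and Ndufs5-ps is a named copy of Ndufs5 that the rule on pseudogene names did not remove.

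The IMP1 group held 3 libraries from cells of genotype Rosa26 I/+;Mx1-Cre tg/+, in which 1 Rosa26 allele carries the conditional IMP1 gene. The Control group held 3 libraries from cells of genotype Rosa26 +/+;Mx1-Cre tg/+, so both groups carried the Cre transgene. Whole bone marrow of these CD45.2 donors had been transplanted into lethally irradiated CD45.1/2 hosts, and both groups received poly(I:C), an RNA mimic that induces interferon and with it the Mx1 promoter. Each library was made from 200 CD45.2+ LSK CD150+ CD48- CD34- cells sorted 8 weeks after the last injection. Mx1-Cre acts in all interferon-responsive donor cells and not in stem cells alone. The labels call the libraries biological replicates but do not say whether each came from a different recipient, and p-values measure the spread between these libraries.

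In oxidative phosphorylation, complex I takes electrons from NADH and complex II from succinate, complex III passes them through cytochrome c to complex IV, which reduces oxygen, and complex V uses the resulting proton gradient to make ATP. Most subunits are encoded in the nucleus and the rest by mitochondrial DNA. Quiescent haematopoietic stem cells are known for relying largely on glycolysis, with oxidative phosphorylation rising as they are activated and differentiate. The count table held 0 of the mitochondrially encoded subunit genes, so the values below cover the nuclear side only.

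Igf2bp1 had 1870, 2084 and 2016 counts in the IMP1 libraries, against 0, 0 and 1 counts in the Control libraries, which fits the labels (edgeR quasi-likelihood test, adjusted p = 0.00399). The library totals were 50220629 to 67083116 counts in IMP1 and 25749898 to 27338450 counts in Control, a mean ratio of 2.26. All 8 LT-HSC marker genes had counts in every library, with summed levels of 1788 to 2092 CPM in IMP1 and 1500 to 1739 CPM in Control (CPM, counts per 1000000 counts after TMM scaling of the libraries, used for all levels below). The surface genes gated out of LT-HSCs (Cd48, Cd34 and Flt3) summed to 155 to 269 CPM in IMP1 and 284 to 327 CPM in Control. Erythroid markers (2 of 5 with counts in every library) summed to 9.70 to 228 CPM in IMP1, with the high value in 1 library, and to 21.7 to 23.5 CPM in Control. Markers of neutrophil and monocyte precursors (2 of 4) summed to 200 to 214 CPM in IMP1 and 254 to 297 CPM in Control, and those of megakaryocytes (3 of 3) to 144 to 349 CPM in IMP1 and 240 to 573 CPM in Control. T and NK cell markers (2 of 3) summed to 12.6 to 34.8 CPM in IMP1 and 1.27 to 6.24 CPM in Control, and B cell markers (0 of 4, with Pax5 at 0 throughout) to 0 to 31.1 CPM in IMP1 and 0 to 0.0376 CPM in Control. Mast cell and macrophage markers stayed under 15 CPM in every library. Their part in the results below was not tested, and in bulk libraries fewer cells of a type and less RNA per cell cannot be told apart.

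Most oxidative phosphorylation genes had slightly lower levels in the IMP1 libraries, in every complex, and 1 gene, Cox4i2, had a far higher one. None of the members passed edgeR's quasi-likelihood test over all genes. The summed level of all members was 16905, 16479 and 15949.7 CPM in the IMP1 libraries, against 19195, 18966 and 20070.0 CPM in the Control libraries. Every IMP1 library lay below every Control library, and the ratio of the group means was 0.847. The same ratio over all 12807 tested genes was 0.938, since TMM scaling does not make the totals equal. Their summed level was 970954, 967100 and 966893 CPM in the IMP1 libraries, against 1026580, 1041370 and 1030270 CPM in the Control libraries. Groups of summed levels without overlap, here and by complex below, are therefore not particular to the members. Each member's log2 CPM was also set against its mean over the 6 libraries. The median of these deviations over the members was −0.078, −0.095 and −0.17 in the IMP1 libraries, against 0.078, 0.094 and 0.18 in the Control libraries, so all 3 libraries of a group had the same sign.

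Of the 88 members, 83 passed the filter on low counts and were tested. The 5 that did not were Cox6a2, Cox7b2, Cox8b, Cox8c and Ndufa4l2. The log2 fold change, IMP1 over Control, was negative for 69 of the 83 tested members (83.1%) and for 6127 of all 12807 tested genes (47.8%). Its median was −0.20 over the members and 0.029 over all tested genes. At an adjusted p under 0.05 in edgeR's quasi-likelihood test, 0 of the 83 members were called, beside 27 of all tested genes (0.211%). At an unadjusted p under 0.05, 26 members were lower and 1 was higher, where 7.63% of all tested genes were lower and 6.67% higher. For 38 members all 3 IMP1 libraries lay below all 3 Control libraries, as they did for 11.1% of all tested genes. For 2 members, Cox4i2 and Ndufa12, all IMP1 libraries lay above all Control libraries, as for 10.7% of all tested genes. DESeq2, run as an alternative, called 22 members at an adjusted p under 0.05, 21 of them lower and 1 higher, beside 7.02% of the genes to which it gave an adjusted p. Of these 22, 8 are of complex I, 2 of complex II, 4 of complex III, 3 of complex IV and 4 of complex V, and the last is Cycs. In limma-voom 0 members were called. Without the IMP1 library with high erythroid markers the median of the members was −0.24, with 71 negative.

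**Figure D1:**
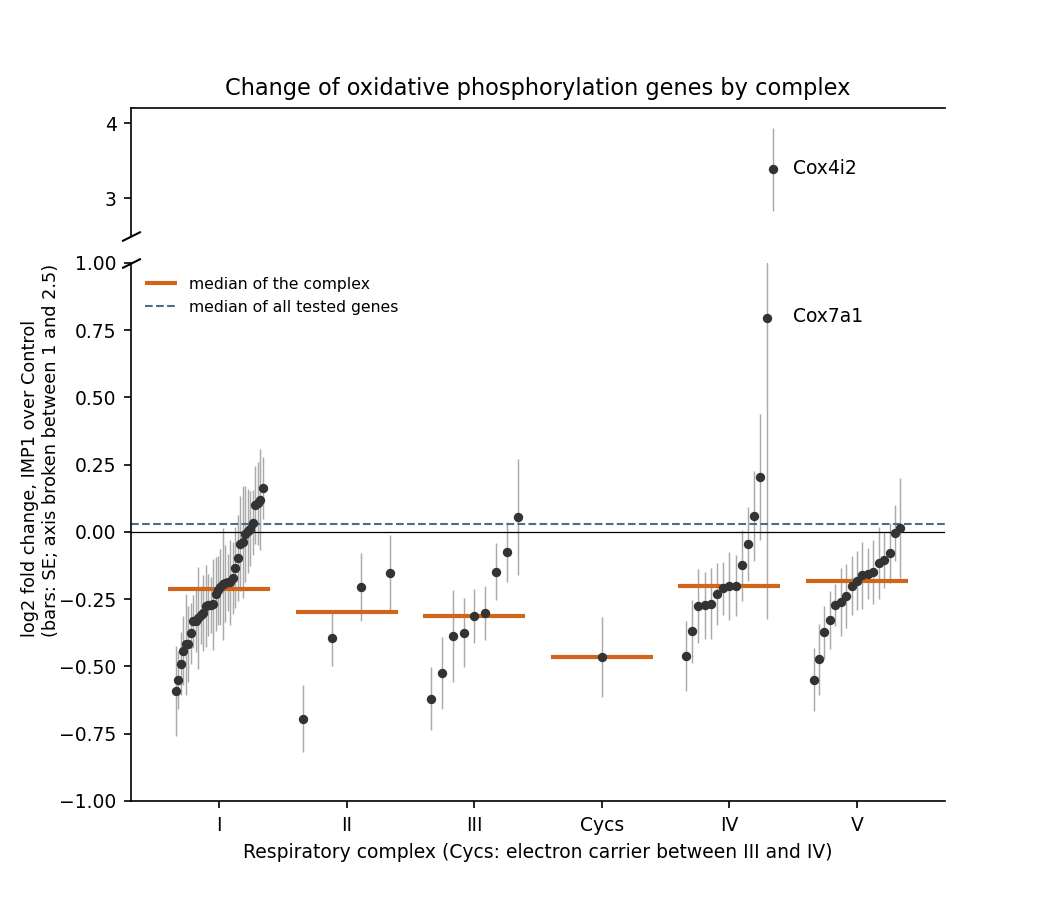
Each point is the log2 fold change of 1 tested member, IMP1 over Control, with its SE, sorted within each complex; the orange line is the median of the complex and the dashed line that of all tested genes. The medians lie between −0.31 (complex III) and −0.18 (complex V), below the median of all tested genes at 0.029, and Cox4i2 stands apart at 3.39. The bar of Cox7a1 runs past the break of the axis.

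The members of lowest p in the first 3 complexes and in complex V, Sdha, Uqcr11, Ndufs7 and Atp5j2, are shown with the sequence around their transcription start, because promoters of respiratory chain genes are known for sites of the factors NRF1, the ETS protein GABP and YY1. Ndufa12, the abundant member that was higher in all IMP1 libraries, is shown beside them. The sequences come from RefSeq (GRCm38.p6) and run 5′ to 3′ from 250 bases before the start to at most 32 bases after it, on the gene's strand. Capitals mark matches, on either strand, to GCANGCGC (NRF1-like), CCGGAAG (an ETS core) and AAGATGGC (YY1-like). The motifs were chosen with the sequences in view.
Sdha (chr13:74350211-74350490, minus strand): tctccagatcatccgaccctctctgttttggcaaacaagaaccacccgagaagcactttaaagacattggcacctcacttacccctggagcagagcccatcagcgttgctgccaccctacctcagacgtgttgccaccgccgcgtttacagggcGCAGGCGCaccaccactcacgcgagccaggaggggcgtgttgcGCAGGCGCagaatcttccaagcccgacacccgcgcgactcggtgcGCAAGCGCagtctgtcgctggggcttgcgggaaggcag
Uqcr11 (chr10:80406792-80407071, minus strand): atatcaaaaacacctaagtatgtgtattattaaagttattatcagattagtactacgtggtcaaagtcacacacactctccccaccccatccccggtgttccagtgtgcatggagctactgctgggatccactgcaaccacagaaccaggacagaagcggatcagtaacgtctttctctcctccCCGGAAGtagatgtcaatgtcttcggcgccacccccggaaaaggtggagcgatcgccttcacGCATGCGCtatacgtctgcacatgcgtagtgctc
Ndufs7 (chr10:80249199-80249480, plus strand): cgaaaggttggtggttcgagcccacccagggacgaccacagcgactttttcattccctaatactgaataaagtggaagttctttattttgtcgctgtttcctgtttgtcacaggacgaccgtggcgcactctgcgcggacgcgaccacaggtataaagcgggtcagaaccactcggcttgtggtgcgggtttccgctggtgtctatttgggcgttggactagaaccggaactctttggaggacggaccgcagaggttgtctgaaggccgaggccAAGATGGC
Atp5j2 (chr5:145191511-145191791, minus strand): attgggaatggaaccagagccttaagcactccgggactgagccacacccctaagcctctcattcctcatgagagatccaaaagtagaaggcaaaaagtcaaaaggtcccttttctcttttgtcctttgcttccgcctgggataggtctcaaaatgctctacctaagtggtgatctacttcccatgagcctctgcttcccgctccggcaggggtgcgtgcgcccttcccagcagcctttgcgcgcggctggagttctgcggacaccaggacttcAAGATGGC
Ndufa12 (chr10:94198785-94199064, plus strand): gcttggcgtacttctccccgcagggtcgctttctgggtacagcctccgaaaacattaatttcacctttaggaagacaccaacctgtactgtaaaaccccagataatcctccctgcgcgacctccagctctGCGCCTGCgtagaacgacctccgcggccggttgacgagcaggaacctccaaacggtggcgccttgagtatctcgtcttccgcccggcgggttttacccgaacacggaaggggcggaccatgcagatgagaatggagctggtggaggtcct

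Sdha held 3 NRF1-like matches, which start 96, 53 and 8 bases before the transcription start. Uqcr11 held 1 NRF1-like match, 4 bases before the start, and 1 ETS core 66 bases before it. In Ndufs7 and Atp5j2 a YY1-like match lay just past the start, and Ndufa12 held 1 NRF1-like match on the opposite strand, 120 bases before it. RefSeq promoters of 300 bases were found for 70 of the 88 members, 75 promoters in all. The NRF1-like motif was in 38.7% of them, in 17.9% of the promoters of tested genes and in 9.61% of all promoters. The ETS core was in 22.7%, against 17.1% of the promoters of tested genes and 8.86% of all, and the YY1-like motif in 13.3%, against 4.35% and 2.75%. The NRF1-like motif was present in promoters of genes of either sign, as in Sdha and Ndufa12. A match is a description of the letters, not a site or a cause.

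In complex I, the entry point for electrons from NADH, most core and accessory genes had negative changes, and the lowest p-values were those of 2 iron-sulfur subunits. Of its 36 tested genes, 29 had a negative log2 fold change, with a median of −0.21. At an unadjusted p under 0.05, 11 were lower and 0 higher, where 7.63% and 6.67% of all tested genes were. All IMP1 libraries lay below all Control libraries in 16, as they did for 11.1% of all tested genes. The summed level was 5019, 4971 and 4874 CPM in the IMP1 libraries, against 5521, 5694 and 6102 CPM in the Control libraries, without overlap of the groups. The 29 accessory subunits had a median of −0.22, with 23 negative.

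Among the core genes, Ndufs7, an iron-sulfur subunit close to the ubiquinone site, had 146, 148 and 148 CPM in the IMP1 libraries, against 208, 219 and 220.3 CPM in the Control libraries. The groups were far apart relative to their spread (log2 fold change −0.55, SE 0.11, adjusted p = 0.0831). Ndufs8, an iron-sulfur subunit beside it, had 179, 163 and 174 CPM in the IMP1 libraries, against 254, 217 and 253 CPM in the Control libraries (log2 fold change −0.49, SE 0.12, adjusted p = 0.116). Its groups did not overlap either. The NADH-binding flavoprotein gene Ndufv1 had 118, 91.4 and 143 CPM in the IMP1 libraries, against 135, 169.6 and 166 CPM in the Control libraries. In this gene 1 IMP1 library lay above a Control library, and the change was −0.42 (adjusted p = 0.372). Ndufv2, its partner in NADH oxidation, averaged 300.1 ± 14.5 CPM in IMP1 and 342 ± 29.7 CPM in Control (SD, n = 3 each; log2 fold change −0.19). The changes were −0.036 for Ndufs1 and 0.11 for Ndufs3, with overlapping libraries in both.

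Of the accessory genes, Ndufa1, an X-linked subunit of the membrane arm, had 79.1, 86.6 and 88.3 CPM in the IMP1 libraries, against 118, 111 and 154 CPM in the Control libraries (log2 fold change −0.59, SE 0.17, adjusted p = 0.172). All IMP1 libraries were lower, and the Control libraries were the more spread. Ndufa3 had 163, 185 and 143 CPM in the IMP1 libraries, against 227, 214 and 225 CPM in the Control libraries (log2 fold change −0.44, SE 0.13, adjusted p = 0.184). Ndufb8, Ndufa8, Ndufs6, Ndufa6, Ndufb5, Ndufa13 and Ndufb9, all structural subunits, followed with log2 fold changes of −0.42 (Ndufs6) to −0.27 (Ndufa13) and non-overlapping groups. Ndufa8 averaged 138 ± 4.13 CPM in IMP1 and 179.9 ± 4.56 CPM in Control, Ndufb8 averaged 252 ± 6.72 CPM in IMP1 and 317 ± 18.0 CPM in Control and Ndufb5 averaged 167 ± 6.94 CPM in IMP1 and 207 ± 4.76 CPM in Control (SD, n = 3 each). None of these 9 accessory genes passed in edgeR, with adjusted p-values of 0.172 (Ndufa1) to 0.333 (Ndufb9). DESeq2 called 6 of them, all but Ndufa6, Ndufa13 and Ndufb9, with adjusted p-values of 0.0129 (Ndufa8) to 0.0467 (Ndufb5). In Ndufb4, Ndufa2, Ndufb3 and Ndufb7 the groups did not overlap either, with changes of −0.28 (Ndufb4) to −0.20 (Ndufb7). The libraries overlapped in Ndufa9, Ndufa7, Ndufb2, Ndufa11, Ndufb10, Ndufv3, Ndufb6, Ndufc1, Ndufa5 and Ndufa10, whose changes lay between −0.32 (Ndufb2) and −0.0073 (Ndufa10).

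Ndufa12, a subunit of the peripheral arm, had the opposite sign, with 203, 228 and 192 CPM in the IMP1 libraries, against 189, 178 and 188 CPM in the Control libraries (log2 fold change 0.16, SE 0.12, adjusted p = 0.581). Its difference was small next to that of Ndufs7, although the groups did not overlap. Ndufa12 also has a named copy in RefSeq, Ndufa12-ps, whose reads may be among its counts. The other positive members of complex I, Ndufs5, Ndufs3, Ndufab1, Ndufc2, Ndufb11 and Ndufs4, had changes of 0.0044 (Ndufs4) to 0.12 (Ndufs5) and overlapping libraries. Ndufs5 is uncertain, since its reads can be shared with Ndufs5-ps, which lies within the span of Zbtb20 and itself had a change of 0.052 with overlap. Per kb of RefSeq-linked transcript, Ndufa3 was at 317 ± 40.8 CPM per kb in IMP1 and 431 ± 12.9 CPM per kb in Control (SD, n = 3 each), the highest level of complex I in Control. In IMP1, Ndufa7 at 332 ± 35.3 and Ndufa6 at 329 ± 13.6 CPM per kb had higher means, within the spread of the libraries. The smallest level in both groups was that of Ndufab1, at 37.4 ± 2.88 CPM per kb in IMP1 and 34.8 ± 4.21 CPM per kb in Control.

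Complex II, which also serves the citric acid cycle, had the lowest summed level in IMP1 relative to Control, with a ratio of 0.750, against 0.826 to 0.866 for the other complexes. No test of that difference between complexes was made. The low sum rests largely on Sdha, whose fitted ratio was 0.618, against 0.761 for Sdhb, 0.868 for Sdhd and 0.898 for Sdhc. All 4 genes were negative, with a median of −0.30. At an unadjusted p under 0.05, 2 were lower, where 7.63% of all tested genes were. Sdha, the flavoprotein that oxidises succinate, had 271, 245 and 310.1 CPM in the IMP1 libraries, against 475, 399 and 463 CPM in the Control libraries (log2 fold change −0.69, SE 0.12, adjusted p = 0.0743). The lowest Control library was above the highest IMP1 library by more than the spread within IMP1. Sdha passed with a stricter filter on low counts (adjusted p = 0.0309) and in DESeq2, and over all alternatives its adjusted p ranged from 2.64e-05 to 0.214.

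Sdhb, the iron-sulfur subunit that receives the electrons from Sdha, had 226, 218 and 236 CPM in the IMP1 libraries, against 276, 314 and 302 CPM in the Control libraries (log2 fold change −0.39, SE 0.10, adjusted p = 0.145). Its groups did not overlap. The membrane anchors Sdhc and Sdhd, which pass electrons on to ubiquinone, differed less. Sdhc had 123, 158 and 122 CPM in IMP1, against 151, 149.9 and 148 CPM in Control, with 1 IMP1 library above all Control libraries (log2 fold change −0.15, adjusted p = 0.691). Sdhd had 266, 234 and 245 CPM in IMP1, against 270.5, 330.2 and 258 CPM in Control, again with overlap (log2 fold change −0.20, adjusted p = 0.523).

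**Figure D2:**
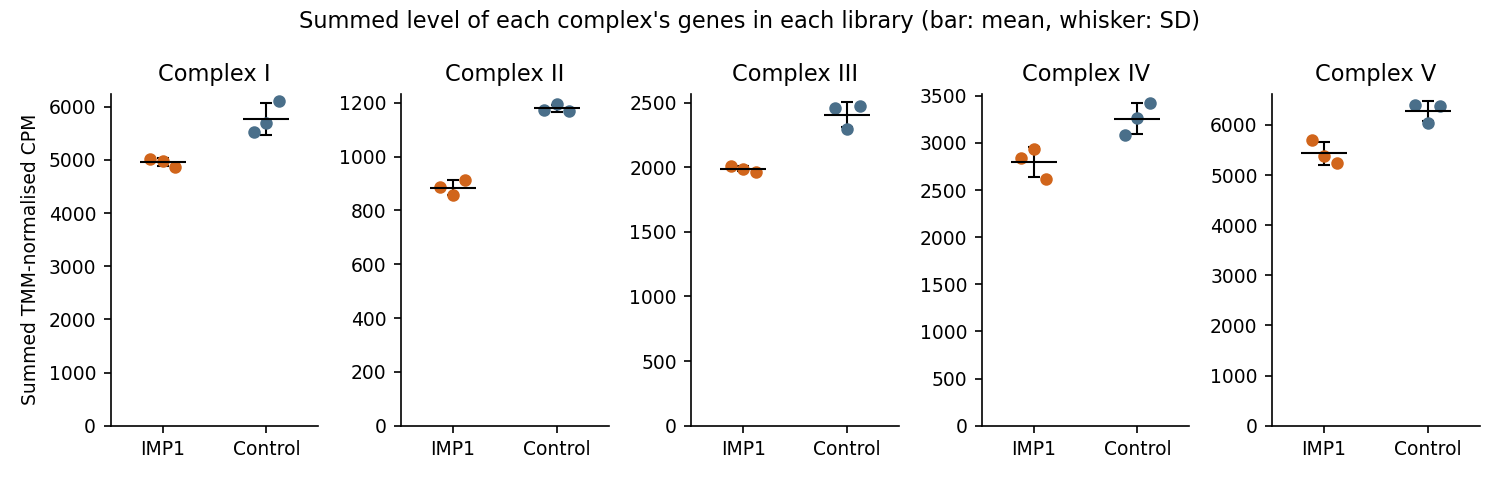
Summed TMM-normalised CPM of the members of each complex, 1 point per library, with the mean and SD of 3 libraries. In each of the 5 complexes the 3 IMP1 libraries lie below the 3 Control libraries, as they do in the summed level of all tested genes. Complex II averaged 885 CPM in IMP1 and 1179 CPM in Control.

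In complex III most genes of the small subunits and core proteins had lower levels in IMP1, and the libraries of the 2 catalytic nuclear genes overlapped between the groups. Of 9 tested genes, 8 were negative, with a median of −0.31. At an unadjusted p under 0.05, 5 were lower, where 7.63% of all tested genes were. The summed level was 2006, 1989 and 1966 CPM in the IMP1 libraries, against 2457, 2292 and 2470.4 CPM in the Control libraries. Uqcr11, a small subunit, had 168, 165 and 175 CPM in the IMP1 libraries, against 247, 242 and 293 CPM in the Control libraries (log2 fold change −0.62, SE 0.12, adjusted p = 0.0798). All 3 IMP1 libraries were lower than any Control library, and their own spread was narrow. Uqcr11 passed with the stricter filter on low counts (adjusted p = 0.0469) and in DESeq2, with a range over all alternatives of 5.66e-05 to 0.216.

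Uqcrq, a small subunit near the cytochrome b subunit, had 87.8, 87.6 and 79.2 CPM in the IMP1 libraries, against 125, 118 and 123 CPM in the Control libraries (log2 fold change −0.52, SE 0.13, adjusted p = 0.134). The groups did not overlap, but Uqcrq lies over Gdf9 in the reference, and the strand used in counting was not given. Uqcrc1, a core protein, had 361, 342 and 362 CPM in the IMP1 libraries, against 471, 399 and 452 CPM in the Control libraries (log2 fold change −0.31, SE 0.10, adjusted p = 0.224). Its companion Uqcrc2 averaged 278 ± 13.9 CPM in IMP1 and 293 ± 29.5 CPM in Control (SD, n = 3 each; log2 fold change −0.075), with overlap. Uqcr10 and the hinge protein gene Uqcrh had changes of −0.37 and −0.30 and non-overlapping groups. Uqcrh and Uqcrb had the highest levels per kb in this complex. Uqcrh was at 676 ± 64.2 CPM per kb in IMP1 and 833 ± 28.3 CPM per kb in Control, and Uqcrb at 719 ± 49.7 CPM per kb in IMP1 and 796 ± 71.7 CPM per kb in Control (SD, n = 3 each).

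Of the catalytic genes, Cyc1, cytochrome c1, had 134, 92.4 and 109 CPM in the IMP1 libraries, against 133, 146 and 160.2 CPM in the Control libraries (log2 fold change −0.39, SE 0.17, adjusted p = 0.357). Its groups overlapped in 1 library each. Uqcrfs1, the Rieske iron-sulfur protein, had 109.5, 123 and 127 CPM in IMP1, against 112, 150.2 and 83.3 CPM in Control, and its change of 0.055 had an SE of 0.21 and no fixed sign, with −0.13 to 0.29 over the alternatives. Cycs, cytochrome c itself, had 441, 319 and 314 CPM in the IMP1 libraries, against 527, 453 and 500.0 CPM in the Control libraries (log2 fold change −0.46, SE 0.15, adjusted p = 0.222). All IMP1 libraries were lower, with 1 of them close to the lowest Control library. Cycs has 3 named copies in RefSeq, and reads of these copies may be among its counts.

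**Figure D3:**
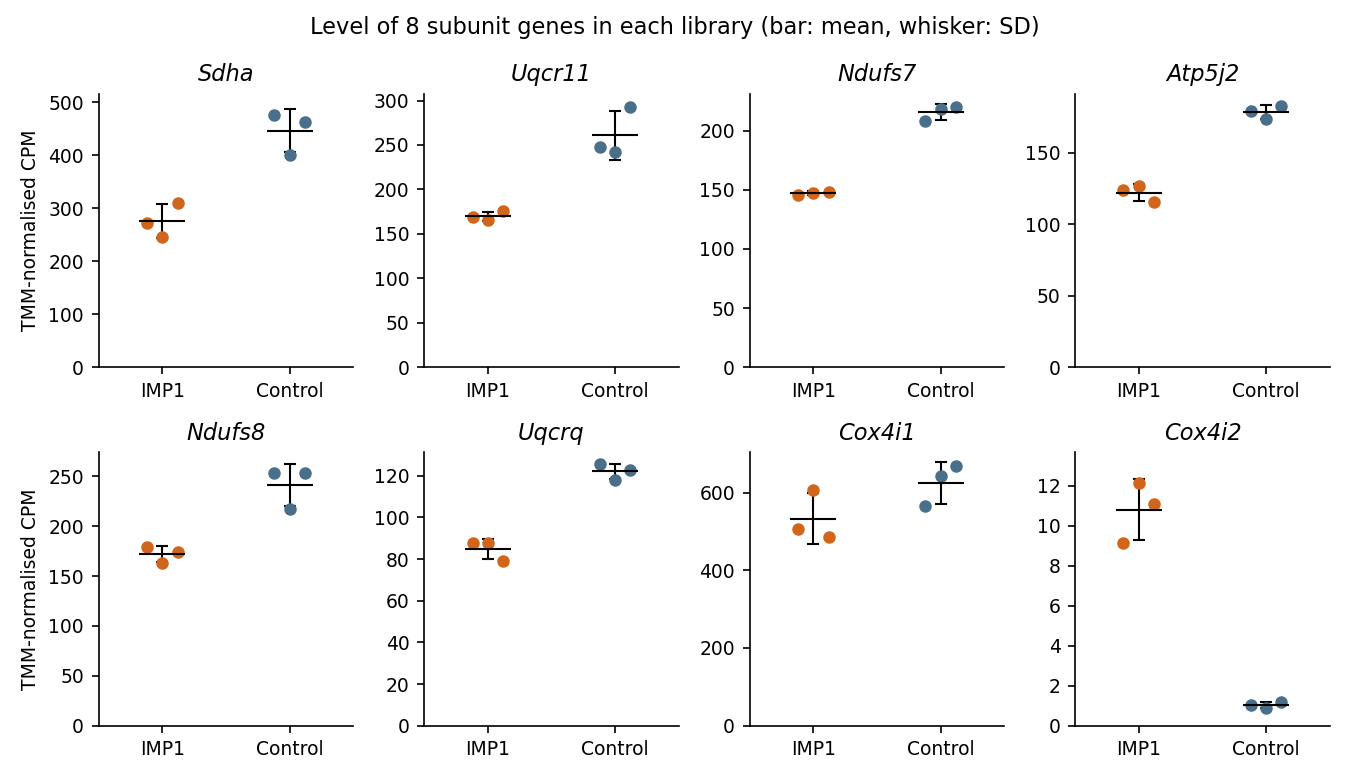
Levels of 8 subunit genes in each library, in TMM-normalised CPM, with the mean and SD of 3 libraries. In the first 6 genes every IMP1 library lies below every Control library, Cox4i1 overlaps between the groups, and Cox4i2 averaged 10.8 CPM in IMP1 and 1.03 CPM in Control.

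Complex IV combined many small negative changes with 1 large positive one in an isoform gene. Of 15 tested genes, 11 were negative, with a median of −0.20. At an unadjusted p under 0.05, 2 were lower and 1 higher, where 7.63% and 6.67% of all tested genes were. The summed level was 2839, 2939 and 2620.5 CPM in the IMP1 libraries, against 3089, 3262 and 3427 CPM in the Control libraries. The 11 genes expressed in most tissues had a median of −0.21, with 10 negative. Cox8a, a small subunit, had 162, 155 and 142 CPM in the IMP1 libraries, against 194, 200.3 and 238 CPM in the Control libraries (log2 fold change −0.46, SE 0.13, adjusted p = 0.171). Cox6c had 184, 158 and 184 CPM in the IMP1 libraries, against 217, 223 and 239 CPM in the Control libraries (log2 fold change −0.37, SE 0.12, adjusted p = 0.219). In both genes the groups did not overlap. Ndufa4, first assigned to complex I and now counted as a complex IV subunit, averaged 305 ± 5.38 CPM in IMP1 and 353 ± 25.5 CPM in Control (SD, n = 3 each; log2 fold change −0.21). Cox7b and Cox5b also had non-overlapping groups, with changes of −0.27 and −0.20. Cox7a2l, known as a supercomplex factor that joins complexes III and IV, had 358, 447 and 385 CPM in IMP1, against 419.7, 516 and 503 CPM in Control (log2 fold change −0.27), with overlap. Cox6a1, Cox6b1, Cox5a, Cox7c and Cox7a2 overlapped between the groups, with changes of −0.27, −0.20, 0.059, −0.046 and −0.12.

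Several complex IV subunits exist as a common and a tissue-restricted isoform, and the choice of isoform is known to adjust the enzyme to muscle, lung, testis or low oxygen. Cox4i2, the isoform of subunit 4 known from lung and from cells at low oxygen, had 582, 841 and 575 counts in the IMP1 libraries, against 28, 22 and 29 counts in the Control libraries. Its level was 9.14, 12.1 and 11.1 CPM in the IMP1 libraries, against 1.05, 0.871 and 1.16 CPM in the Control libraries. Every IMP1 library lay several times above every Control library (log2 fold change 3.39, SE 0.55, adjusted p = 0.0614). It passed in DESeq2 and with the newer edgeR settings (adjusted p = 0.0291), and the range over all alternatives that tested it was 5.59e-09 to 0.200. The stricter filter removed it as a low gene. The Cox4i2 span overlaps Bcl2l1 in RefSeq. Bcl2l1 had 64.3, 28.9 and 32.5 CPM in the IMP1 libraries, against 37.3, 41.6 and 35.4 CPM in the Control libraries, with overlapping groups (log2 fold change 0.14, adjusted p = 0.895).

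Cox4i1, the common isoform, had 506, 607 and 486 CPM in the IMP1 libraries, against 565, 641 and 669 CPM in the Control libraries (log2 fold change −0.23, SE 0.12, adjusted p = 0.425), and the groups overlapped. Per kb of RefSeq-linked transcript, Cox4i2 made up 2.06% ± 0.237 in IMP1 and 0.171% ± 0.0271 in Control of the summed level of both genes (SD, n = 3 each). Cox4i1 made up the rest in both groups, and its level per kb was the highest in complex IV, at 706 ± 85.3 CPM per kb in IMP1 and 828 ± 71.4 CPM per kb in Control. Cox7a1, the heart and muscle isoform, had 1.15, 0.635 and 1.19 CPM in IMP1, against 0.0376, 0.594 and 1.08 CPM in Control. Its change of 0.80 had an SE of 1.12, with 1 Control library near 0. Cox6b2, known from testis, had 32.6, 39.5 and 34.7 CPM in IMP1, against 33.6, 33.1 and 26.0 CPM in Control (log2 fold change 0.20, adjusted p = 0.756), with overlap.

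The other restricted isoforms were nearly absent from the counts. Cox6a2, the muscle isoform, had 0, 68 and 0 counts in the IMP1 libraries and 0 in every Control library. Cox7b2 had 0, 2 and 27 counts in the IMP1 libraries and 0 in every Control library. Cox8b had 0 counts in every IMP1 library and 0, 3 and 0 in the Control libraries. Cox8c, a testis isoform, and Ndufa4l2, a relative of Ndufa4 known from low oxygen, had 0 counts in all 6 libraries. A count of 0 does not show that a transcript was absent, since replicates differed by more than sampling noise. Cox6a1, the common counterpart of Cox6a2, averaged 213 ± 23.8 CPM in IMP1 and 257 ± 32.2 CPM in Control, and Cox6b1, that of Cox6b2, averaged 212 ± 17.3 CPM in IMP1 and 243 ± 26.7 CPM in Control (SD, n = 3 each).

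**Figure D4:**
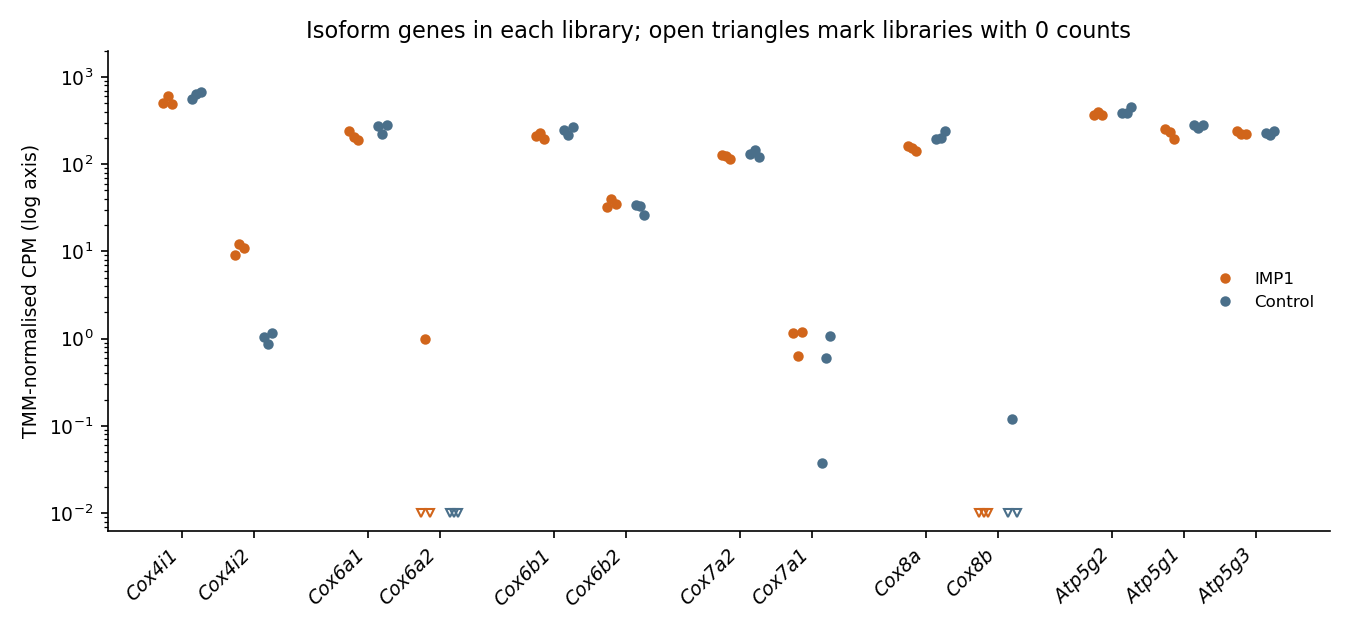
Level of isoform genes in each library on a log axis, IMP1 in orange left of Control in blue; open triangles at the bottom mark libraries with 0 counts. Cox4i2 is the isoform whose groups are far apart, with 9.14 to 12.1 CPM in IMP1 and 0.871 to 1.16 CPM in Control, and Cox4i1, the common form, overlaps between the groups.

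In complex V, the ATP synthase, 16 of 17 tested genes had negative and mostly small changes, with a median of −0.18. At an unadjusted p under 0.05, 5 were lower and 0 higher, where 7.63% and 6.67% of all tested genes were. All IMP1 libraries lay below all Control libraries in 9, as they did for 11.1% of all tested genes. The summed level was 5690.3, 5381 and 5238 CPM in the IMP1 libraries, against 6406, 6047 and 6373 CPM in the Control libraries. The 5 genes of the F1 part, which makes ATP, were all negative with a median of −0.18. The 3 genes of the c ring, which turns with the protons, had a median of −0.10, which turned to 0.067 (longest transcripts) and 0.042 (RefSeq-linked ones) after removal of a trend on length and GC content. The 9 genes of the peripheral stalk and membrane part had a median of −0.20, with 8 negative. After the same removals, in the same order, their median was −0.12 and −0.059, and that of the F1 genes was −0.021 and −0.062.

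Atp5j2, the f subunit of the membrane part, had 124, 127 and 115 CPM in the IMP1 libraries, against 179, 173 and 183 CPM in the Control libraries (log2 fold change −0.55, SE 0.12, adjusted p = 0.0991). Both groups were tight and did not overlap. Atp5pb, the b subunit of the peripheral stalk, had 619.9, 532 and 515 CPM in the IMP1 libraries, against 687, 732 and 741 CPM in the Control libraries (log2 fold change −0.37, SE 0.10, adjusted p = 0.145). Atp5mpl, a small proteolipid of the membrane part, had 119.9, 112 and 123 CPM in the IMP1 libraries, against 155, 156 and 182 CPM in the Control libraries (log2 fold change −0.47, SE 0.13, adjusted p = 0.164). In both, the highest IMP1 library lay below the lowest Control library. Atp5l, the g subunit, averaged 257 ± 20.9 CPM in IMP1 and 323 ± 16.9 CPM in Control (SD, n = 3 each; log2 fold change −0.33). It has 3 named copies in RefSeq and is therefore uncertain. Atp5h, the d subunit of the stalk, had a change of −0.16 without overlap. The groups overlapped in Atp5j, Atp5o, Atp5md and Atp5k, with changes of −0.20 (Atp5j) to 0.014 (Atp5k). Atp5k was the only positive member of complex V in this test.

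Of the F1 genes, Atp5c1, the central rotating gamma subunit, had 658, 662 and 611 CPM in the IMP1 libraries, against 753, 792 and 787 CPM in the Control libraries (log2 fold change −0.27, SE 0.079, adjusted p = 0.184). Its groups did not overlap. The catalytic beta subunit gene Atp5b had 868, 669 and 721 CPM in IMP1, against 945, 769.8 and 811 CPM in Control (log2 fold change −0.16, adjusted p = 0.615). The alpha subunit gene Atp5a1 had 765, 744 and 789.9 CPM in IMP1, against 945, 745 and 737 CPM in Control (log2 fold change −0.078, adjusted p = 0.812). In both genes the libraries overlapped, and the first Control library was the highest of all. Atp5d and Atp5e, the small F1 subunits, had changes of −0.18 and −0.24 and no overlap.

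The c subunit is encoded by 3 genes that give the same mature protein. Atp5g1, the form known to vary between tissues, had 256, 231 and 196 CPM in IMP1, against 279, 258 and 282 CPM in Control (log2 fold change −0.26, adjusted p = 0.406), without overlap. Atp5g2 had 369, 398 and 366 CPM in IMP1, against 385, 383 and 449 CPM in Control, and Atp5g3 had 241, 220.3 and 221 CPM in IMP1, against 229, 217 and 238 CPM in Control, both with overlap. Of the summed c subunit level per kb of RefSeq-linked transcript, Atp5g2 supplied 56.2% ± 2.13 in IMP1 and 56.9% ± 1.51 in Control, Atp5g3 34.5% ± 1.62 in IMP1 and 32.6% ± 1.04 in Control, and Atp5g1 9.32% ± 0.957 in IMP1 and 10.5% ± 0.473 in Control (SD, n = 3 each). The order of the 3 genes was the same in both groups.

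The changes were also set beside transcript length. Members are short, with a median RefSeq-linked transcript of 760.5 bases, against 2844 bases over all tested genes. Length bins were made of the 8895 genes used to fit the trend removed below, which leaves out genes of low level. In the bin of the shortest transcripts (1112 genes, median 972.5 bases) the median log2 fold change was −0.18. In the bin of the longest (median 7030 bases) it was 0.21. Among the 82 members with a length, change and length had a Spearman's rho of −0.010 (RefSeq-linked) and −0.086 (longest transcripts). These genes share the libraries and are not independent replicates. Most are short, with 52 tested members under 1000 bases, so these values say little about a trend over longer transcripts. With a smooth trend on length and GC content removed in each library, the median of the members became −0.087, with 63 of 83 negative. That of all 12807 tested genes, which include genes of low counts, became 0.0050, with 6352 negative. The bin of the shortest transcripts then had a median of −0.053, closer to that of the members. The medians by complex were then −0.076 for complex I, −0.21 for complex II, −0.17 for complex III, −0.087 for complex IV and −0.059 for complex V. Of the long members of low p, Sdha, with a transcript of 2900 bases, had −0.70 against −0.69 before, and Cycs, with 3123 bases, had −0.58 against −0.46. The bin of similar length (median 3102 bases) had a median of 0.025 before. Other long members had smaller changes. Atp5g1 had −0.19 against −0.26 before, Sdhc −0.18 against −0.15, Ndufs1 −0.064 against −0.036 and Ndufab1 −0.0055 against 0.10. With the trend on the longest transcripts removed, Sdha had −0.63 and Cycs −0.52. All 52 tested members under 1000 bases had higher values after the RefSeq-linked removal. Of these, 40 negative ones came closer to 0, as Uqcr11 with −0.45 against −0.62 before and Ndufs7 with −0.41 against −0.55. The other 12 ended farther from 0, as Ndufa12 with 0.29 against 0.16. The part of length in the changes of single members was not tested beyond this removal.

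**Figure D5:**
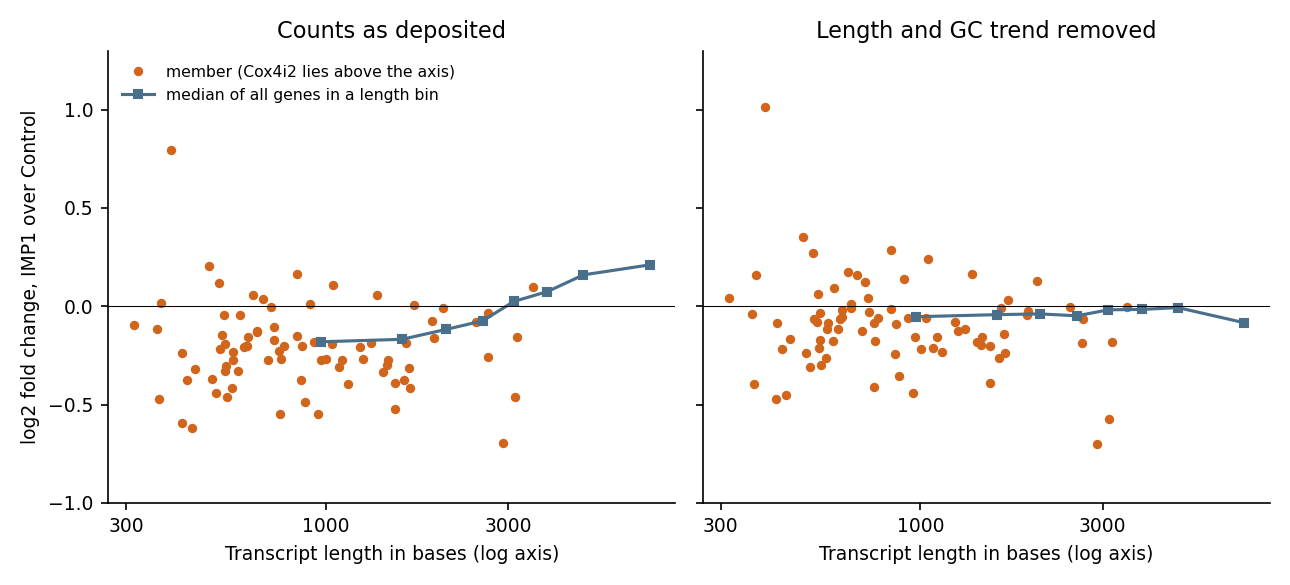
Log2 fold change, IMP1 over Control, of each member (orange) against RefSeq-linked transcript length on a log axis, with Cox4i2 above the axis. Blue marks the medians of 8 length bins of the 8895 genes used to fit the length and GC trend. Values are before (left) and after (right) removal of that trend. Before removal, the medians of the bins run from −0.18 to 0.21 and 69 of the 83 tested members are negative; after it the medians are between −0.083 and −0.0066.

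Genes that build, regulate or surround the complexes were described from lists beside the members. Of 48 assembly factor genes, 35 were negative, with a median of −0.14. With the trend on length and GC content removed (RefSeq-linked), 26 were negative and the median was −0.039. At an unadjusted p under 0.05, 2 of the 48 were lower (Ndufaf8 and Coa3) and 0 higher, where 7.63% of all tested genes were lower. Ndufaf8, a complex I assembly factor, averaged 29.1 ± 2.62 CPM in IMP1 and 43.1 ± 2.58 CPM in Control (log2 fold change −0.56), and Coa3, which acts in complex IV assembly, averaged 111 ± 7.16 CPM in IMP1 and 141 ± 15.2 CPM in Control (SD, n = 3 each; log2 fold change −0.35). Of 19 regulators of mitochondrial biogenesis, 8 were negative, with a median of 0.12, and of 0.044 with the trend removed. Myc, a transcription factor that drives growth and mitochondrial genes, had 270.4, 189 and 206 CPM in the IMP1 libraries, against 379, 399 and 368 CPM in the Control libraries (log2 fold change −0.79, SE 0.15, adjusted p = 0.0760). All IMP1 libraries were lower, by more than the spread within either group. Mterf3, a regulator of mitochondrial transcription, had 96.0, 107 and 81.6 CPM in IMP1, against 71.5, 74.6 and 60.01 CPM in Control (log2 fold change 0.47, SE 0.18, adjusted p = 0.289), with all IMP1 libraries above the Control libraries.

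All 8 tested genes of the inhibitor, supercomplex and hypoxia list were negative, with a median of −0.35, but 3 of them (Cox7a2l, Atp5mpl and Atp5md) are members. Atpif1, the inhibitor that stops the ATP synthase from running backwards, had 359, 342 and 302 CPM in the IMP1 libraries, against 459, 573 and 531 CPM in the Control libraries (log2 fold change −0.64, SE 0.12, adjusted p = 0.0760). Its groups did not overlap. The 77 genes of the mitochondrial ribosome had a median of −0.13, with 57 negative, and of −0.073, with 46 negative, with the trend removed. In that list Mrpl2 averaged 51.5 ± 1.44 CPM in IMP1 and 79.3 ± 9.63 CPM in Control (SD, n = 3 each). The 18 genes of mitochondrial mass and protein import had a median of −0.12, with 13 negative, and of −0.042, with 10 negative, with the trend removed. The import channel gene Timm23 averaged 194 ± 14.6 CPM in IMP1 and 257 ± 17.8 CPM in Control (SD, n = 3 each; log2 fold change −0.41). In edgeR and in limma-voom 0 genes of these lists were called. DESeq2 called 0 of the 48 assembly factors, 1 of the 19 regulators (Myc), 3 of the 8 genes of the inhibitor list (Atpif1 and Atp5mpl among them), 2 of the 77 ribosome genes (Mrpl2 among them) and 2 of the 18 import genes (Timm23 among them). Of all genes to which DESeq2 gave an adjusted p, 7.02% were called. At an unadjusted p under 0.05 in edgeR, 1 regulator was lower and 1 higher. In the inhibitor list 4 genes were lower and in the ribosome list 5, and 3 import genes were lower and 1 higher. The shares over all tested genes were 7.63% lower and 6.67% higher.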

How the data were processed

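The deposited file holds the authors' raw counts for each Entrez gene with a column for each library, per the file headers. The tool TopHat2 2.0.10 and the build mm9 are named in the submitters' processing notes; the counting program, its strand setting and its treatment of shared reads are not given in the sources used here. cDNA was made with a SMARTer Ultra Low RNA kit, per the labels, which uses no molecular identifiers. Symbols came from RefSeq by Entrez identifier (21615 of 21761 matched), and 0 value columns were left without a library. Because the reference (GRCm38.p6) is not mm9, coordinates are given for RefSeq promoters only.

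Counts were fitted as deposited with edgeR 4.0.16 (glmQLFit and glmQLFTest) in R 4.3.3, with TMM scaling, filterByExpr, genotype as the only term and all 6 libraries. The Benjamini-Hochberg adjusted p covers all 12807 tested genes, and calls were made under 0.05. The SE of a log2 fold change was its size over the root of F. The fit was tested on simulated data, where it called 22.7% of changes of 1 log2 unit and 76% of changes of 3. Of its 100 calls there, 5 were false. Smaller changes, such as those of most members, were not simulated. Levels are CPM. Fold changes come from the fit. Levels per kb had been planned on the longest annotated transcript, which still ranked the members named for their level; the values printed use the transcript linked to a RefSeq mRNA (the median where several are), a choice made after seeing the data. The alternatives were other scalings, filters, edgeR settings, DESeq2 1.42.0, limma 3.58.1 (voom), thinning to 25749898 counts, the replicate number as a block, a loess length and GC trend removed per library (span 0.4, using genes whose mean log2 CPM was over 3), and each library left out. The trend removal with RefSeq-linked transcripts was added after seeing the data. No batch is labelled. Replicates of a group differed beyond sampling noise, with chi-square per degree of freedom of 53.6 to 170.4.

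The members and lists were chosen with earlier results of these data known. Named were all genes of complex II, Cyc1 and Cycs, the 4 members of lowest p and the 2 of highest level in each other complex, the 2 largest positive changes, the isoform sets and every member called in an alternative; the other genes named were added after their values were seen. Of the members, 18 overlap another gene of the table and 16 have a named copy, and these are uncertain. Among them are Ndufa12, Atp5c1, Atp5pb, Uqcrh and Ndufs6, which have named copies, and Ndufa1, which overlaps Rnf113a1. Values of some single genes are not reported here.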

Additional observations from a re-analysis of the deposited data

How the results depend on the processing

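The direction of the median of all members and of each complex was kept in all 18 alternative fits and with Ndufa4 placed in complex I, and so was a call count of 0 members except where stated. The number of genes called over the whole table was 27 and became 16 without scaling beyond the total, 49 with edgeR's newer settings, 145 with the strict filter on low counts, 13 (longest transcripts) and 12 (RefSeq-linked ones) after removal of the trend on length and GC content, 922 in DESeq2, 11 in limma-voom and 231 at an adjusted p under 0.10. The number of members called was 1 with the newer edgeR settings (Cox4i2), 2 with the strict filter (Sdha and Uqcr11), 22 in DESeq2 and 5 at an adjusted p under 0.10. With each library left out in turn, 0 to 2 genes and 0 members were called, the median of the members ranged from −0.25 to −0.19, that of complex I from −0.28 to −0.19 and that of complex III from −0.38 to −0.29.

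Without scaling beyond the total, the medians were −0.11 (members), −0.12 (complex I), −0.21 (II), −0.22 (III), −0.11 (IV) and −0.089 (V), while the median of all genes became 0.12, so the distance of the members from all genes stayed −0.23. With the trend on the longest transcripts removed they were −0.10 (members), −0.083 (I), −0.18 (II), −0.17 (III), −0.050 (IV) and −0.043 (V), and with RefSeq-linked transcripts −0.087 (members), −0.076 (I), −0.21 (II), −0.17 (III), −0.087 (IV) and −0.059 (V). The number of negative members was 61 and 63 under these removals.

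The replicate number as a block gave 4 called genes, 0 called members and a median of −0.21. Deviations from the group means had correlations of 0.018 to 0.037 between same-numbered libraries over 9061 genes. Between libraries of different number they were −0.058 to 0.026. All are near 0, and whether the numbers pair the libraries cannot be told from them.

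Of 736 values of the 41 tested members chosen by the naming rule under the alternatives, 699 kept their direction and side of the threshold, 25 passed it, and 12 turned sign. The last were small values of 3 genes. Atp5g3, at −0.0039 in the main test, was 0.089 without scaling, 0.023 with upper quartile scaling, 0.020 with the strict filter, 0.15 and 0.12 with the trend removed, and −0.045 to 0.026 with each library left out. Atp5g2 was 0.067 and 0.042, and Cox7a2 0.036 and 0.011, with the trend removed. Over all 83 tested members, 18 turned sign in at least 1 alternative, all with overlapping groups and a change of at most 0.13 in size in the main test. Among them were Ndufs1 (−0.30 to 0.11 over the alternatives), Cox5a (−0.057 to 0.19) and Atp5a1 (−0.14 to 0.049). The cause was not tested.

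The rare isoforms rest on few counts, and the Control totals are the smaller. Reads of amplified cDNA do not each stand for 1 molecule.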
